A study of Homo sapiens with 2 samples.

Results

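The plasminogen activator system was described here through 5 genes: PLAU, PLAUR, PLAT, SERPINE2 and SERPINB2. Members were the probe sets, groups of short probes that together report on a transcript, whose only gene symbol in the platform's annotation was one of these genes. Of the 5 genes, 4 had such a probe set, out of 19775 genes named on the array, and together they had 8 probe sets. SERPINB2 had none and was not analysed here. The samples were 2 cultures labelled as U87, an established human glioblastoma line grown in DMEM with serum. By lipid transfection, 1 culture received a non-target siRNA as control, and 1 received an siRNA directed at FOXM1, a forkhead transcription factor of the cell cycle; RNA was taken 48 hours later. The study asked which transcripts differ after FOXM1 knockdown. Each group held 1 sample on 1 array, so there was no replicate check, no SD between samples and no p-value, and every value below compares these 2 arrays as labelled, called the non-target array and the FOXM1-siRNA array.

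Plasminogen is a blood zymogen that becomes plasmin, a broad serine protease that dissolves fibrin and degrades extracellular matrix, when an activator cleaves it. PLAU encodes urokinase, the activator bound to the cell surface through PLAUR, a glycolipid-anchored receptor, and PLAT encodes tissue-type plasminogen activator, which works best on fibrin and is also made by neurons and glia. SERPINE2, or protease nexin 1, traps thrombin, urokinase and plasmin, and SERPINB2 is a largely intracellular inhibitor of urokinase. In gliomas, urokinase and its receptor are known for their part in invasion of brain tissue.

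PLAU and PLAUR had the largest differences of the members, close to each other in size, so the bases before their annotated start sites are shown, from RefSeq on GRCh38.p14. Of the 4 measured members, 3 had an entry in the promoter table (PLAT did not). Each run covers the 250 bases before the start, 5′ to 3′ on the gene's strand, at chr10:73910882-73911131 (plus strand) for PLAU and chr19:43670170-43670419 (minus strand) for PLAUR. Capitals mark matches to any of the motifs searched on both strands: AP-1 TGANTCA, forkhead TGTTTAC, cell cycle homology region TTTGAA, GC box GGGCGG, ETS CCGGAA and TATA box TATAAA.
PLAU: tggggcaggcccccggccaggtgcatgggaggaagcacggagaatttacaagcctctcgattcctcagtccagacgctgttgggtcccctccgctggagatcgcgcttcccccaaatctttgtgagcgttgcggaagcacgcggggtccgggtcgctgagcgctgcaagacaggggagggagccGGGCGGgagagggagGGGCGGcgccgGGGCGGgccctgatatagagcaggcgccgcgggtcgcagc
PLAUR: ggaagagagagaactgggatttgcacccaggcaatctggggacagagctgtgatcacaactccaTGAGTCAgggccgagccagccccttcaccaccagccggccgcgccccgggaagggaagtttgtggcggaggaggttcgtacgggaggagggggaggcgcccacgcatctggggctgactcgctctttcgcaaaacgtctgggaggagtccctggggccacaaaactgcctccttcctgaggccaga
The PLAU run held 3 GC boxes, 66, 51 and 40 bases before the start at their first base, and none of the other motifs. A GC box was found in 42.6% of 35116 promoter windows of this length. The PLAUR run held 1 AP-1 match, TGAGTCA, that began 186 bases before the start, and none of the other motifs. An AP-1 match was found in 6.57% of the windows. A further annotated start of PLAU, with the window chr10:73910360-73910609, held none of the motifs, and the 2 start windows of SERPINE2 held GC boxes alone, 1 in one and 2 in the other. None of the windows of these 3 genes held the forkhead letters, which 2.98% of all windows held, or the cell cycle homology region, which 13.3% held. The PLAU and PLAUR windows were 68.8% and 63.2% G and C, against a median of 58.0% over all windows. A match describes these letters alone.

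The values are MAS5 signal intensities in arbitrary units, scaled per array as a whole. An array's floor was the 90th percentile of its 135 olfactory receptor probe sets, at 60.8 on the non-target array and 77.7 on the FOXM1-siRNA array. Genes with a signal over the floor of 1 or both arrays are called detected; there were 13865, and 11395 of them passed both floors. Each log2 difference below is that of the FOXM1-siRNA array over the non-target array, so that a positive value means a higher signal on the former. For want of replicates, the only spread at hand was that between probe sets of one gene on these arrays. Differences of the several probe sets of a gene spread with an SD of 0.50 per probe set (log2), pooled over 5476 genes, which makes 0.71 for a difference between 2 probe sets. This spread leaves out variation between cultures and transfections, so a multiple of it is no measure of significance. FOXM1 itself, well above both floors, read 1520 and 1343 in its single probe set, a log2 difference of -0.18 that is smaller than the SD per probe set. No clear fall of the transcript that the siRNA targets was thus seen, and FOXM1 gave no check of the labels. CDKN2A, CDKN2B and MTAP, genes of a region that U87 cells are known to have lost, lay above the floor on the non-target array. CDKN2A read 3467 there and 421 on the FOXM1-siRNA array, above the floor of that array too. The brightest probe sets of CDKN2B and MTAP, at 31.8 and 76.3, lay below it. What the siRNA did and any difference in origin of the cultures cannot be told apart. The astrocytic marker GFAP lay below the floor on both arrays, and VIM, an intermediate filament of mesenchymal and glial cells, was bright on both, at 21179 and 40017. OLIG2, a factor of glial progenitors, read 270 and 266, and S100B passed the floor of the non-target array alone. NES, a progenitor filament, was at least 4.29-fold higher on the FOXM1-siRNA array, and CD44, the hyaluronan receptor, was 13.2-fold higher there, with 10 detected probe sets from 1.88 to 4.56 on the log2 scale. The 3′ to 5′ signal ratio of ACTB, a measure of RNA integrity, was 6.79 on the non-target array and 4.21 on the FOXM1-siRNA array; the GAPDH control gave 1.26 and 1.09.

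Urokinase was the member with the largest difference. The brighter PLAU probe set, 205479_s_at, read 556 on the non-target array and 8719 on the FOXM1-siRNA array. The other, 211668_s_at, read 76.3 and 1713. Both probe sets were far higher on the FOXM1-siRNA array, and neither fell below a floor, although the dimmer one stood only 1.25 times above it on the non-target array. The ratios were 15.7-fold and 22.4-fold, or 3.97 and 4.49 on the log2 scale. Their distance of 0.52 lies within the 0.71 expected between 2 probe sets, and the difference of the brighter one is 7.97 times the SD per probe set. Among the 11395 genes above both floors, 84, PLAU included, had a difference at least as high, which places PLAU at percentile 99.3.

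The urokinase receptor differed in the same direction in each of its 3 probe sets. PLAUR probe set 210845_s_at read 591 on the non-target array and 7292 on the FOXM1-siRNA array. Probe set 211924_s_at read 412 and 5310, and 214866_at read 335 and 3115. All readings were well above the floors, the lowest 5.50 times the floor of its array. The ratios were 12.3-fold, 12.9-fold and 9.30-fold, with log2 differences from 3.22 to 3.69 and an SD of 0.26 over the 3 probe sets. PLAUR lay at percentile 98.7, with 146 genes at least as high. Ligand and receptor transcripts differed by like amounts: the log2 difference of PLAU exceeded that of PLAUR by 0.35, less than the 0.71 between 2 probe sets of one gene.

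The tissue-type activator went the other way. The single PLAT probe set, 201860_s_at, read 1405 on the non-target array and 430 on the FOXM1-siRNA array, both well above the floors. PLAT was 3.27-fold lower, a log2 difference of -1.71, in size 3.42 times the SD per probe set, with no second probe set to set beside it. It lay at percentile 5.01, and 572 genes were at least as low. The log2 differences of the 2 activators lay 5.68 apart, so that the ratio of PLAU to PLAT signal was 51.3-fold higher on the FOXM1-siRNA array. Of all pairs of members this was the widest distance, and PLAUR and PLAT followed at 5.33.

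SERPINE2, the inhibitor among the measured members, differed least. Its bright probe set, 212190_at, read 3703 on the non-target array and 8215 on the FOXM1-siRNA array, 2.22-fold higher, or 1.15 on the log2 scale. Its other probe set, 227487_s_at, read 25.9 and 75.3, below the floor on both arrays, and is given no fold. The difference of 1.15 is 2.31 times the SD per probe set and lies at percentile 87.1, with 1473 genes at least as high. It passed 2-fold on the deposited scaling but not when the hybridisation controls, RNAs added in equal amounts, were set equal, at 0.85. SERPINE2 lay 2.82 below PLAU and 2.86 above PLAT on the log2 scale, both distances beyond the 0.71 between probe sets.

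**Figure D1:**
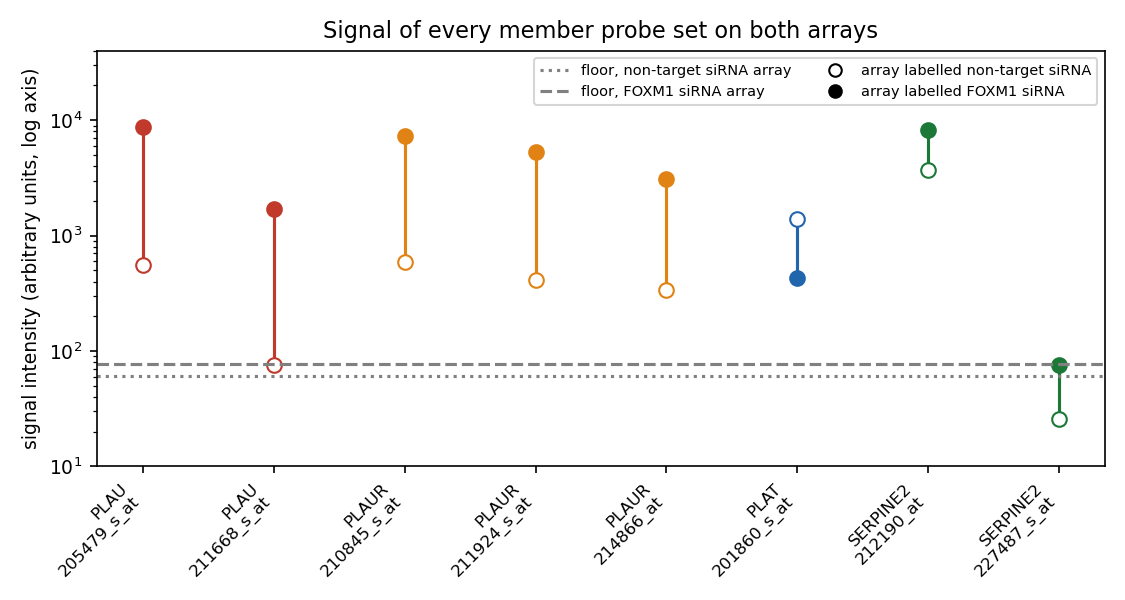
Signal intensity in arbitrary units (log axis) of each of the 8 member probe sets, with open points for the non-target array and filled points for the FOXM1-siRNA array, 1 array each, and the floors as horizontal lines. The filled points lie above the open ones for PLAU, PLAUR and SERPINE2 and below for PLAT, and SERPINE2 probe set 227487_s_at lies under both floors.

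In order of their differences the members ran PLAU, PLAUR, SERPINE2 and PLAT, and only the first pair of neighbours in that order lay within the spread between probe sets. By the brightest probe set of each gene, 3 of the 4 measured members passed 2-fold upward and 1 downward on the FOXM1-siRNA array. Over all 13865 detected genes, 16.0% passed 2-fold upward and 15.4% downward. The median log2 difference was 2.39 over the 4 members and 0.01 over all detected genes. With the hybridisation controls set equal, the median of all detected genes was -0.29, with 1567 higher and 3200 lower genes in place of 2218 and 2132, and 2 members were then at least 2-fold higher and 1 lower. PLAU, PLAUR and PLAT kept their direction and stayed beyond 2-fold under each of the 4 other scalings, with log2 differences of 3.67 to 4.07, 3.32 to 3.72 and -2.01 to -1.62. The members were picked with earlier results of these arrays known, so their count describes them and is no test.

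**Figure D2:**
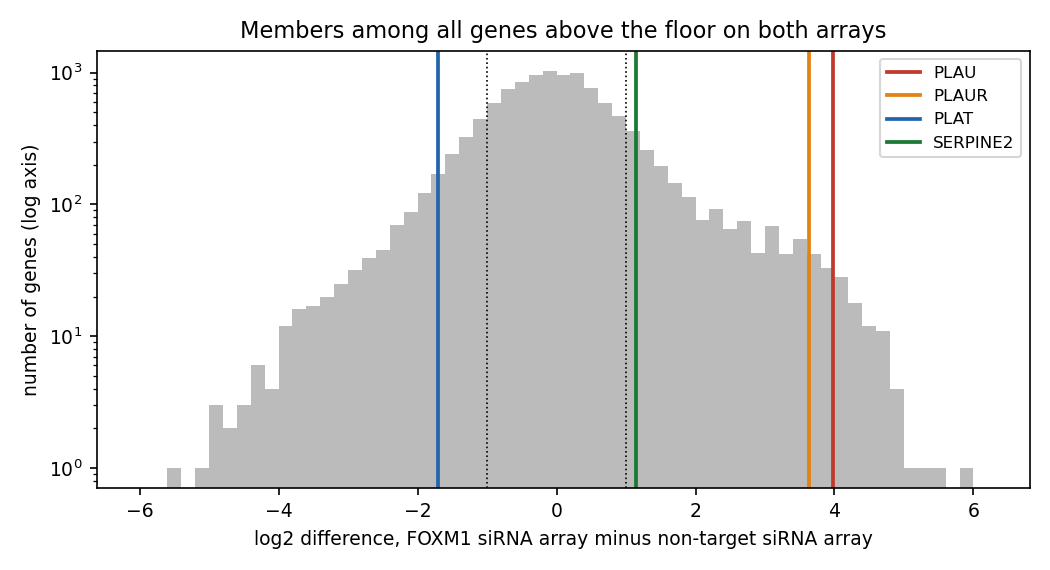
Number of genes (log axis) by log2 difference, FOXM1-siRNA array minus non-target array, for the 11395 genes that passed both floors, with coloured lines at the 4 members and dotted lines at 2-fold. PLAU (3.97) and PLAUR (3.63) lie in the upper tail, SERPINE2 (1.15) just past 2-fold and PLAT (-1.71) on the lower side.

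The genes whose difference was closest to that of PLAU, over the 2 arrays, were PIK3CD and HTRA1. HTRA1, a secreted serine protease, read 1213 and 18937 in its single probe set, a log2 difference of 3.96, within 0.01 of PLAU. PIK3CD, a catalytic subunit of phosphoinositide 3-kinase, read 82.6 and 1302, or 3.98, but its other probe set gave 0.28. Likeness over 2 arrays is a single number and describes no more than that.

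Markers of other cell types were read beside these values. Of 3 fibroblast markers, COL1A1, DCN and LUM, all passed 2-fold upward on the FOXM1-siRNA array, where 16.0% of all detected genes did. Their summed signal was 1257 on the non-target array and 12504 on the other, most of it from COL1A1, with 1119 and 11394. DCN read 46.5, below the floor, and 266, at least 4.38-fold higher, with 3 of 7 probe sets detected. LUM read 91.1, near the floor, and 844, with 1 of 2 probe sets detected. Probe sets of one gene were not all alike, and the 5 of COL1A1 ran from -0.06 to 3.35 on the log2 scale. KRT18, a keratin of simple epithelia, was 6.99-fold lower. EPCAM read 48.1, below the floor, and 98.8, at least 1.62-fold higher. CDH1 read 113 and 20.9, the latter below the floor, at least 1.45-fold lower. The macrophage markers CD14 and PTPRC lay below the floor on both arrays, as did the endothelial cadherin CDH5, at 12.4 and 12.2. The other endothelial markers were higher on the FOXM1-siRNA array. PECAM1 read 62.8 and 113, a log2 difference of 0.85, which is under 2-fold. VWF read 9.86, below the floor, and 119, at least 1.96-fold higher, and this bound leaves unknown whether it passed 2-fold. Of 3 melanocyte markers, MLANA lay below the floor on both arrays. PMEL, at 85.5 and 47.3, and TYR, at 61.2 and 52.3, passed the floor of the non-target array alone, TYR barely. Whether the fibroblast or endothelial markers or KRT18 have a part in the differences of PLAU, PLAUR or PLAT was not tested, and in RNA of whole cultures a change in the share of cells and a change of RNA per cell cannot be told apart.

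The wider system was read from 29 further genes grouped by role, of which 26 had a probe set and 19 were detected. Of these 19, 10 passed 2-fold upward and 1 downward on the FOXM1-siRNA array, or 52.6% and 5.26%, beside the 16.0% and 15.4% of all detected genes. Their median log2 difference was 1.19, against 0.01 over all. Under the 4 other scalings, 9 to 11 were higher and 1 to 2 lower. These genes too were chosen, by function, with earlier results of these arrays known, so their share describes them and is no test.

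Plasminogen itself was not detected: the brightest PLG probe set read 22.0 and 27.7, below the floors of both arrays. Its cell surface receptors were detected, and 2 of 4 were at least 2-fold higher, where 16.0% of all detected genes were. The other 2, PLGRKT and ENO1, were at 0.90 and 0.66 on the log2 scale. ANXA2, which with S100A10 forms a complex that holds plasminogen and tissue-type activator at the membrane, read 8178 and 31740, a 3.88-fold higher signal. Its 4 probe sets all lay above 0, from 0.69 to 2.05 on the log2 scale. S100A10, the partner subunit, read 9483 and 33544, 3.54-fold higher, and its 2 probe sets gave 1.74 and 1.82.

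Receptors that clear complexes of activator and inhibitor were mixed. LRP1, which internalises urokinase bound to its inhibitors and receptor, read 92.7 on the non-target array and 572 on the FOXM1-siRNA array, 6.17-fold higher, and its other detected probe set gave 2.56 on the log2 scale. VLDLR, a related receptor, was 3.14-fold higher. MRC2, a collagen receptor found with PLAUR, was 2.27-fold higher in its brighter probe set, while its other probe set gave 0.06 on the log2 scale. LRP2, or megalin, was the 1 lower gene, with 225 and 48.7, below the floor on the FOXM1-siRNA array, so at least 2.89-fold lower. LRPAP1, a chaperone of these receptors, was at -0.71, but its 3 probe sets ran from -0.93 to 1.20.

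Of 7 measured inhibitors and regulators of fibrinolysis, 3 lay below the floor on both arrays. Of the other 4, 1 passed 2-fold upward and none was seen to pass downward, where 16.0% and 15.4% of all detected genes did. THBD, the thrombin receptor thrombomodulin, read 65.9 and 396, 6.01-fold higher, with its 3 probe sets from 0.59 to 2.59 on the log2 scale. SERPINI1, or neuroserpin, an inhibitor of tissue-type activator made by neurons, read 372 and 520, a log2 difference of 0.48 that is within the SD per probe set. A2M read 6.05, below the floor, and 109, at least 1.79-fold higher, with 1 of 2 probe sets detected. SERPINA5 read 85.1 and 14.3, the latter below the floor, at least 1.09-fold lower. These bounds leave unknown whether A2M or SERPINA5 passed 2-fold. Of 4 other proteases of the system, F12 alone was detected, above the floor on the non-target array only, with 118 there.

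Genes of tissue factor and its control, which start and check the clotting that lays down fibrin, held the largest differences of the wider system. F3, the gene of tissue factor, read 705 on the non-target array and 6547 on the FOXM1-siRNA array, 9.28-fold higher. TFPI, its inhibitor, read 572 and 6211, 10.9-fold higher, with 5 probe sets from 1.73 to 3.85 on the log2 scale. TFPI2, a related inhibitor that acts on plasmin and other proteases, read 6537 and 39312, 6.01-fold higher. PROCR, the protein C receptor, was 2.86-fold higher, and F2R, the thrombin receptor, was at 0.66 on the log2 scale.

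**Figure D3:**
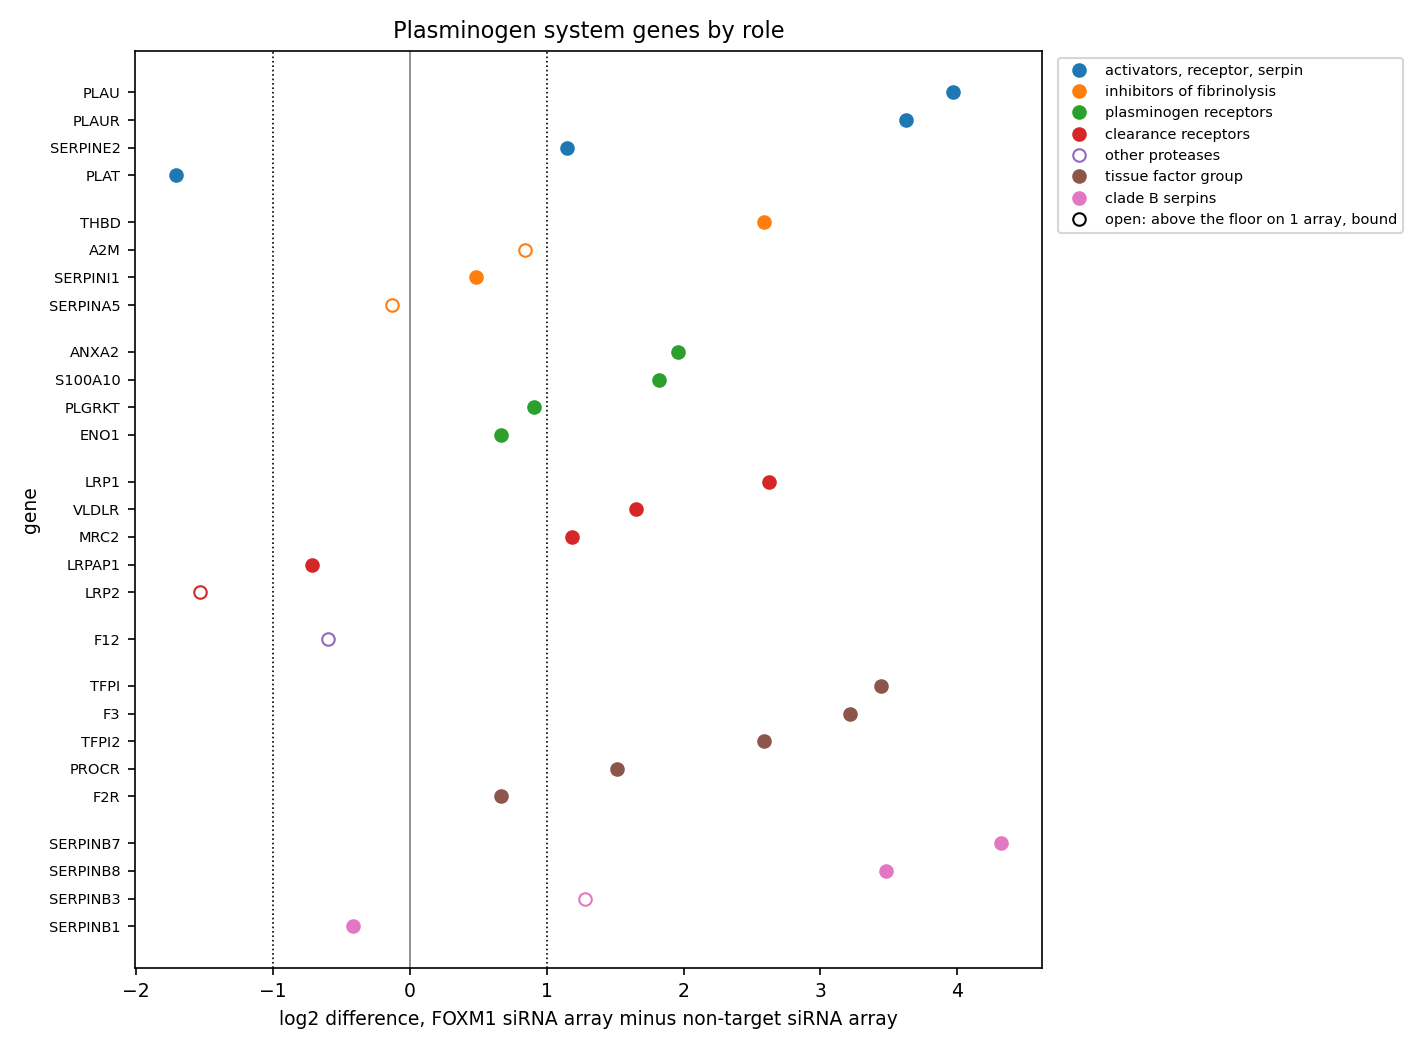
Log2 difference, FOXM1-siRNA array minus non-target array, for the 4 measured members and the detected genes of each role, with 1 probe set per gene and dotted lines at 2-fold. Open points are bounds for genes above the floor on 1 array; PLAT and LRP2 are the only 2 points beyond 2-fold on the lower side on this scaling.

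Clade B serpins, the family of SERPINB2, were read as a further list. Of the 12 others, 11 had a probe set and 4 were detected, of which 3 passed 2-fold upward and none downward, against the 16.0% and 15.4% above; the other scalings gave 2 or 3 higher and none lower. SERPINB7 read 91.0 and 1815, 19.9-fold higher, in its single probe set, and lies just before SERPINB2 in the order of the clade B genes on their chromosome. SERPINB8, also of that cluster, read 79.1 and 884, 11.2-fold higher, but its other detected probe set gave 0.15 on the log2 scale. SERPINB3 was above the floor on the FOXM1-siRNA array only, at 148, and at least 2.43-fold higher. It thus counts as detected only through the array where it is high. This list too was read with earlier results of these arrays known, so its share is no test. SERPINB10, on the far side of SERPINB2, read 5.78 and 8.86, below both floors. SERPINB1, an inhibitor of neutrophil proteases, was at -0.42 in its brightest probe set, and its 3 detected probe sets ran from -0.42 to 0.79.

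The members lie on 4 chromosomes, and the 3 nearest detected protein-coding genes on each side were read to see whether neighbours differed alike. Around PLAU, 5 of 6 neighbours, CAMK2G and VCL next to it among them, lay between 0.08 and 0.86 on the log2 scale, and ZSWIM8 was 2.41-fold higher. Around PLAUR, 5 of 6 lay between -0.91 and 0.03. The sixth, KCNN4, a calcium-activated potassium channel gene, read 70.9 on the non-target array and 1722 on the FOXM1-siRNA array, 24.3-fold higher in its single probe set. Around PLAT, POLB, a repair polymerase gene, was 2.39-fold lower and the other 5 lay between -0.92 and 0.38. Around SERPINE2, DOCK10 was at least 26.9-fold higher, and the other 3 besides IRS1 and AP1S3 lay between -0.46 and 0.12. IRS1, the insulin receptor substrate, was 10.3-fold higher, with 3 probe sets from 1.91 to 3.37 on the log2 scale. AP1S3 was 2.45-fold lower, with 4 detected probe sets from -1.29 to -0.51. ZSWIM8, POLB and DOCK10 had 1 detected probe set each. Over all detected genes, 16.0% passed 2-fold upward and 15.4% downward.

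**Figure D4:**
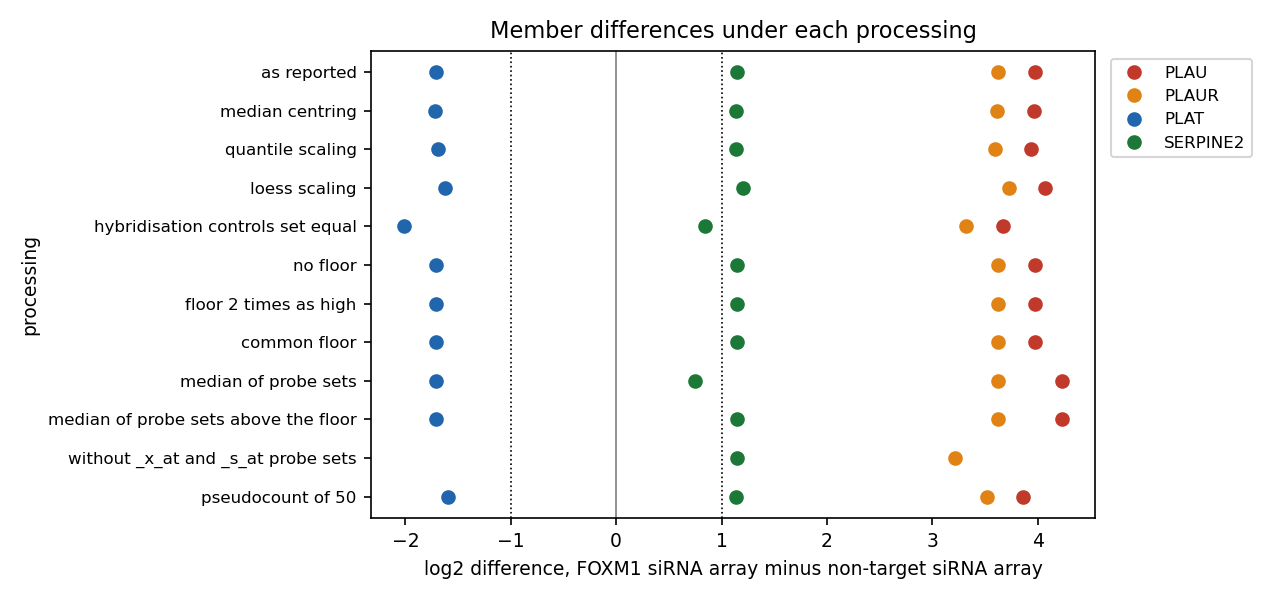
Log2 difference of each measured member, FOXM1-siRNA array minus non-target array, as reported and under 11 other ways of processing, with dotted lines at 2-fold. Every point keeps its sign; SERPINE2 falls inside 2-fold with the hybridisation controls set equal (0.85) and with the median of all its probe sets (0.75), and PLAU and PLAT have no point without _x_at and _s_at probe sets.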

How the data were processed

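RNA of 2 samples was measured on 1 array each. The deposited values are linear signal intensities, made with MAS5 per the submitters' processing notes, whose version is not given in the sources used here. RNA was labelled with a kit that primes at the poly-A tail, per the labels' protocols, so signal comes mainly from transcript ends. Both arrays had a trimmed mean of 500.07 (2% cut from either tail), which shows scaling to a common target. Of 54675 probe sets, 41097 had 1 gene symbol, 1801 several and 11777 were not in the platform annotation; symbols were updated by gene ID (GRCh38.p14) for 99.9%.

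Signals under an array's floor were raised to it before log2, so a fold with 1 array under the floor is a bound, written "at least". For each gene the probe set brightest on average over the arrays was used. Members and lists were chosen with earlier results of these data known. Named were every member; of each list up to 6 detected genes past 2-fold by size; the 2 genes closest to the member with the largest difference; and FOXM1, CDKN2A, CDKN2B and MTAP. Other list genes (among them S100A10, VLDLR, MRC2, LRP2 and PROCR), the markers' single values and the chromosomal neighbours were named after their values were seen. With 1 array per group, their number limits the precision. Alternatives were 4 scalings (median centring, quantile, loess with span 0.3, hybridisation controls), 3 floors, 2 choices of probe set, a pseudocount of 50 and a 1.5-fold threshold; the median of the probe sets above the floor was added after seeing the data. The calculation was tested on simulated data. Python 3.11.15 with numpy 2.4.6, pandas 2.3.3, scipy 1.17.1, statsmodels 0.14.6 and matplotlib 3.10.9 was used.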

Additional observations from a re-analysis of the deposited data

How the results depend on the processing

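The log2 differences of PLAU, PLAUR, PLAT and SERPINE2 kept their sign under each alternative that gave a value, with ranges of 3.67 to 4.23, 3.22 to 3.72, -2.01 to -1.60 and 0.75 to 1.20. Without _x_at and _s_at probe sets PLAU and PLAT had no probe set and no value, so that the count of members at least 2-fold lower fell to 0, of 2 measured; that of SERPINB genes higher was then 1 of 2 detected. With the median of all probe sets SERPINE2 was at 0.75, because its probe set under both floors then counts at the ratio of the floors; over probe sets above the floor alone it was 1.15. The 10 higher genes of the wider system became 7 of 16 without _x_at and _s_at probe sets and 14 at 1.5-fold. The single lower one became 3 at 1.5-fold, 2 with the hybridisation controls set equal, with no floor or with a pseudocount of 50, and 0 with a floor 2 times as high. Over all detected genes, 3623 were higher and 3714 lower at 1.5-fold, and 3200 were lower with the hybridisation controls set equal, whose median log2 difference on the deposited scaling was 0.30. No paired analysis was possible because each group holds 1 sample. Signal close to the floor of the non-target array limits, among the named genes, PLAU probe set 211668_s_at, THBD, LRP1, SERPINB7, SERPINB8, KCNN4, PIK3CD and PECAM1.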
